A study of Mus musculus with 20 samples.

Results

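The core response was the set of genes that changed in the same direction, against PBS, in bone marrow-derived macrophages (BMDMs) given any of 4 airway-fluid preparations. Members were chosen by 4 comparisons of 8 libraries, each treated group against the same 4 PBS libraries. A gene was core when all 4 comparisons passed an adjusted p of 0.05 (edgeR quasi-likelihood test, Benjamini-Hochberg adjustment over all genes tested) with log2 fold changes beyond 1, or beyond -1, of the same sign. Genes were tested when their counts scaled to library totals (CPM) averaged 3 or more over the 20 libraries, and of the 10639 tested 654 were core. Of these, 407 genes were higher than PBS in all 4 groups (3.83% of the genes tested) and 247 were lower (2.32%). Since all 4 comparisons used the same PBS libraries, a deviation of these libraries enters all of them.

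Recipient cells in all 5 groups were wildtype C57BL/6J BMDMs on day 7 of culture, grown from bone marrow of female mice in L929-conditioned medium and then held without serum. The bronchoalveolar lavage fluid came from mice with ovalbumin (OVA)-induced airway inflammation that carried (RNY1+/+) or lacked (RNY1-/-) the gene of the Y RNA RNY1, so the genotype is that of the fluid donor and not of the macrophages. Size exclusion separated the fluid into an extracellular vesicle-enriched fraction (EVFx), given at 35000000 particles per µL, and a protein-enriched fraction (ProteinFx), given at 0.75 µg of protein per µL. The groups were PBS, RNY1+/+ EVFx, RNY1-/- EVFx, RNY1+/+ ProteinFx and RNY1-/- ProteinFx, with 4 libraries each and all in batch 1. Doses of the fractions are in different units, so a difference in size between EVFx and ProteinFx is not a difference at matched dose. Fluid of unchallenged mice was not analysed here, so a response to OVA inflammation and a response to any lavage fraction cannot be told apart. How the 4 libraries of a group relate (separate wells, cultures or fluid pools) and how long the cells were treated are not stated in the labels, so p-values measure only the spread between these samples, which may be technical. The RNY1-/- mice are a CRISPR knockout line.

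As background, macrophages carry sensors for microbial products and nucleic acids. Signals from these sensors activate NF-kB, which switches on cytokine and chemokine genes, and interferon regulatory factors, which induce type I interferon. Interferon then acts on the same or nearby cells through JAK kinases and STAT factors, which bind the interferon-stimulated response element (ISRE) of many antiviral genes. NF-kB binds kappa-B sites, and STAT dimers bind gamma-activated sites (GAS). Resting macrophages instead express receptors for the uptake of dying cells and lipids, among them the Trem2 receptor and the bridging ligand Gas6.

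Promoters of some core genes hold these motifs. They are shown because ISRE and kappa-B matches were more frequent among core-higher genes than among all genes tested. Each window is 30 bases from a RefSeq promoter (250 bases before to 50 after a gene's start, build GRCm38.p6, strand of the gene, 5′ to 3′), and the capitals mark the motif.
Ifit1, ISRE on the opposite strand, chr19:34640775-34640804: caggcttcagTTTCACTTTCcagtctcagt
Isg15, ISRE, chr4:156200871-156200900: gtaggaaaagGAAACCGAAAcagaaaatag
Gbp2, ISRE on the opposite strand, chr3:142620594-142620623: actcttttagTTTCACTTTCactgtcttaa
Gbp2, kappa-B on the opposite strand, chr3:142620660-142620689: gcaaaaatctGGAACTTCCCgggttactac
Rsad2, ISRE on the opposite strand, chr12:26456553-26456582: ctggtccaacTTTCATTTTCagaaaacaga
Cxcl10, ISRE, chr5:92349083-92349112: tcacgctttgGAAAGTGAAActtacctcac
Cxcl10, kappa-B, chr5:92349029-92349058: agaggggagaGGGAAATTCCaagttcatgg
Cxcl3, kappa-B, chr5:90786018-90786047: gagctgcgggGGGAATTTCCccagcccggg
Cxcl2, kappa-B, chr5:90903792-90903821: cctgagctcaGGGAATTTCCctggtccccg
Nfkbia, kappa-B on the opposite strand, chr12:55492657-55492686: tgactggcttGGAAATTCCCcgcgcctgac
H2-K1, kappa-B, chr17:34000439-34000468: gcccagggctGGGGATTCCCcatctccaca

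The ISRE was searched as GAAA, any 2 bases and GAAA again, GAS as TTCNNNGAA, AP-1 as TGANTCA, the cyclic AMP response element (CRE) as TGACGTCA, the E-box as CACGTG and kappa-B by its degenerate consensus, all on both strands and with overlaps between motifs allowed. A promoter was found by symbol for 289 of the core-higher genes and 175 of the core-lower genes. An ISRE was found for 20.8% of the core-higher genes, against 4.14% of the 7565 tested genes with a promoter and 3.99% of all 27025 genes in the promoter table. Core-lower genes held one in 4.00% of cases, a share close to that of the genes tested. Kappa-B matches were found for 19.4% of core-higher, 8.57% of core-lower and 12.1% of tested genes, and GAS matches for 14.5%, 8.57% and 8.18%. AP-1 was found for 15.9%, 6.29% and 6.21%. A CRE was found for only 3 core-higher genes (1.04%), against 3.75% of the genes tested. The E-box share of core-higher genes (11.1%) was close to that of the genes tested (12.6%). An ISRE, a kappa-B match or both were found for 107 core-higher genes, or 37.0%, so most core-higher genes had neither sequence in this window. Genes that are copies of each other were counted singly. The ISRE windows of Ifit3 and Ifit3b, for example, had the same sequence, as had those of Ifi203 and Mndal. These shares are descriptions of the letters in the window and not of factor binding.

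**Figure D1:**
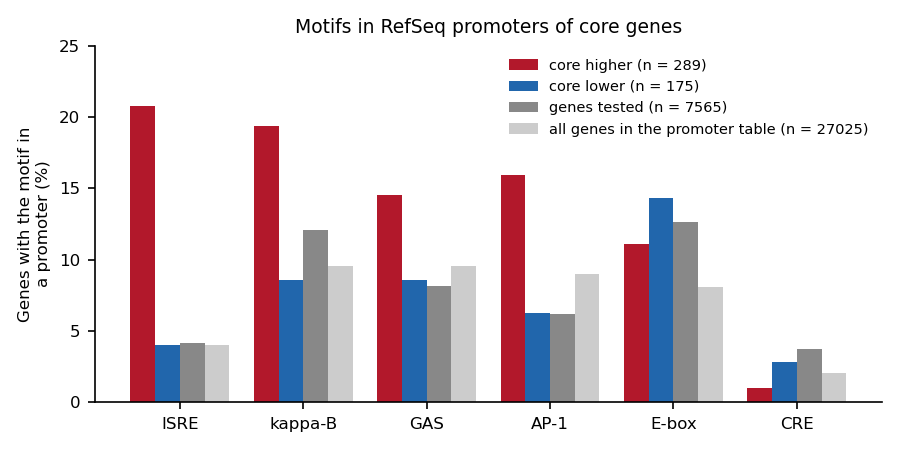
Share of genes (y axis, percent) with each of 6 motifs in a RefSeq promoter window, for core-higher genes, core-lower genes, all tested genes with a promoter and all genes of the promoter table. The core-higher bar is the highest of the 4 for ISRE (20.8%), kappa-B (19.4%), GAS (14.5%) and AP-1 (15.9%).

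Library totals ranged from 2510005 to 8277366 counts, with a median of 5456425. The biological coefficient of variation within a group was at most 10.5% in RNY1+/+ EVFx, RNY1-/- EVFx and RNY1+/+ ProteinFx, but 20.9% in PBS and 17.6% in RNY1-/- ProteinFx. PBS replicate 3 stood apart from the other PBS libraries (11.1% without it), and in RNY1-/- ProteinFx replicates 1 and 2 stood apart from 3 and 4. The 10 macrophage markers were detected in every group and summed to 8786 to 13722 CPM. Of cells that lavage fluid could carry, eosinophil and epithelial markers were low. The 5 eosinophil markers summed to at most 4.00 CPM with Epx at 0 in every group. The 7 epithelial markers summed to at most 4.31 CPM with the surfactant genes Sftpa1, Sftpb and Sftpc at 0. The 9 neutrophil markers were not low, at 144 to 356 CPM, with Ly6g at 0 outside RNY1+/+ ProteinFx. Of these, S100a8 and S100a9 averaged 158 and 130 CPM in PBS, which received no lavage fluid. The neutrophil sum was 287 to 336 CPM in PBS, 144 to 210 CPM in RNY1+/+ EVFx, 185 to 266 CPM in RNY1-/- EVFx, 199 to 325 CPM in RNY1+/+ ProteinFx and 241 to 356 CPM in RNY1-/- ProteinFx. All 8 EVFx libraries were thus below PBS, and the part of these transcripts in the results was not tested. Rny1 and Rny3 had at most 2 counts in any library of this poly(A)-based assay.

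Core-higher genes took up 1.91% ± 0.0809 of a library's counts in PBS (SD, n = 4). Their share was 9.06% ± 0.702 in RNY1+/+ EVFx, 9.10% ± 0.867 in RNY1-/- EVFx, 11.2% ± 0.932 in RNY1+/+ ProteinFx and 7.90% ± 0.405 in RNY1-/- ProteinFx. Core-lower genes fell from 3.58% ± 0.804 in PBS to between 0.836% ± 0.0486 and 1.29% ± 0.245 in the treated groups. PBS replicate 3 had the lowest PBS share of core-lower genes, at 2.51%. The genes were chosen on these libraries, so the separation of treated libraries from PBS in either share follows from the choice.

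**Figure D2:**
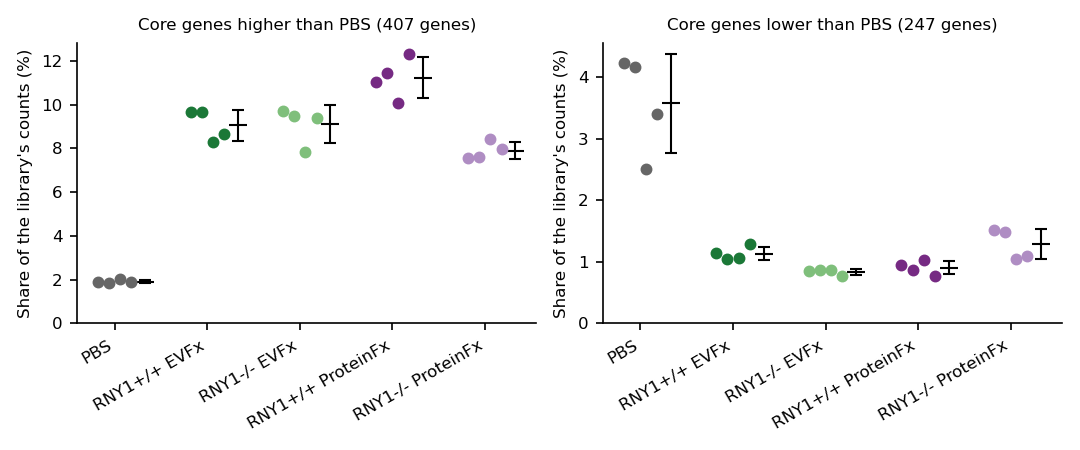
Share of each library's counts (y axis, percent) taken by the 407 core-higher genes (left) and the 247 core-lower genes (right) in the 5 groups. Points are libraries, bars are the mean and SD of 4. PBS libraries sit at 1.83 to 2.02% on the left and 2.51 to 4.23% on the right, and treated libraries at 7.57 to 12.3% and 0.764 to 1.52%.

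Each comparison called more genes than the core. With RNY1+/+ EVFx 1739 genes changed (16.3% of those tested, 8.51% higher and 7.84% lower) and with RNY1-/- EVFx 2408 (22.6%, 9.39% higher and 13.2% lower). With RNY1+/+ ProteinFx 2240 genes changed (21.1%, 8.99% higher and 12.1% lower) and with RNY1-/- ProteinFx 1533 (14.4%, 6.49% higher and 7.91% lower). The core made up 37.6%, 27.2%, 29.2% and 42.7% of these calls, and 19.1% of the 3425 genes called in any group. Another 734 genes were called in the same direction in 3 groups only, and 1032 in 1 group. Core-higher genes had median log2 fold changes of 2.23, 2.28, 2.64 and 2.11 in RNY1+/+ EVFx, RNY1-/- EVFx, RNY1+/+ ProteinFx and RNY1-/- ProteinFx, and core-lower genes of -1.39 to -1.96, beside medians of -0.03 to -0.05 over all genes tested. The smallest of a gene's 4 changes exceeded 2 on the log2 scale in 164 core-higher and 22 core-lower genes, and 3 in 76 and 3. All 16 treated libraries lay above all 4 PBS libraries for 388 of the 407 core-higher genes (6.45% of all genes tested) and below them for 193 of the 247 core-lower genes (9.49%), but the members were chosen on the same libraries and nothing is read from these counts.

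The lower side of the core was the less steady. With counts scaled to library totals instead of TMM, 352 genes were core higher and 362 lower, so the share of higher genes was 49.3% against 62.2% with TMM. That scaling moved the median of all genes to between -0.08 and -0.26. After removal of GC and length trends 391 were higher and 170 lower (69.7% higher). Core-lower genes had a median GC content of 53.6%, against 46.4% for core-higher and 48.6% for all genes tested, and across genes the fold change fell with GC in RNY1-/- EVFx and both ProteinFx groups (Spearman's rho -0.42 to -0.49) but little in RNY1+/+ EVFx (-0.09). Without RNY1-/- ProteinFx replicates 3 and 4 the counts were 397 and 159.

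At the fold limit, the members just inside were Rplp1, Tmem209, Oas1g and Cdc42ep3, with a smallest absolute log2 change of 1.00 in each, and those just outside were Foxo3, H2-M3, Rabac1 and Yars1, also at 1.00 after rounding. With a replicate block Cdc42ep3 was at -0.99. At the expression limit, Gm49369, Dock5, Zfyve28 and Spata13 had mean levels from 3.01 CPM up, and 4930599N23Rik, Abtb1, F830208F22Rik and Kifc3 missed it at 2.96 to 3.00 CPM.

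Among core-higher genes that averaged 10 CPM or more and did not overlap with PBS, Tarm1, an activating receptor of myeloid cells, kept the largest minimum response. Its 4 PBS libraries held 3 counts in all. Treated libraries ranged from 10.4 to 55.5 CPM, and the ratio to PBS was 281 in RNY1+/+ EVFx (95% counting interval 95.8 to 1363) and 90.8 in RNY1-/- ProteinFx (30.7 to 443), intervals that cover counting error only. Acod1 makes itaconate in activated macrophages. It was at 2.46, 3.55, 5.72 and 2.49 CPM in PBS, at 883, 972, 875 and 1006 CPM in RNY1+/+ EVFx, 703, 720, 595 and 842 CPM in RNY1-/- EVFx, 543, 556, 495 and 867 CPM in RNY1+/+ ProteinFx, and 152, 129, 152 and 127 CPM in RNY1-/- ProteinFx. Every treated library was thus above every PBS library, and RNY1-/- ProteinFx was the lowest treated group without overlap with the other three. The log2 fold changes of Acod1 were 8.22, 7.90, 7.61 and 5.35 (SE 0.22 to 0.30), and the 4 treated groups differed (edgeR F test, adjusted p = 3.29e-10).

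The nonclassical MHC class I gene H2-M2 rose from 2.01 to 5.33 CPM in PBS to 93.7 to 869 CPM in treated libraries, with log2 fold changes of 7.69, 7.36, 6.54 and 5.09. AW112010, a long RNA induced in inflammatory macrophages, was instead highest in RNY1+/+ ProteinFx, with log2 fold changes of 4.83, 5.28, 6.40 and 5.64. Its levels were 47.8 to 61.9 CPM in PBS and 1079 to 4672 CPM in treated libraries. Ms4a4c and Gbp3 were likewise highest in RNY1+/+ ProteinFx (6.55 and 5.22), while Cd69, an early activation marker, and Cst7, a cysteine protease inhibitor, showed minimum changes of 4.55 and 4.50, both in RNY1-/- ProteinFx. Rasgrp1 activates Ras downstream of diacylglycerol. It had 4 counts over the PBS libraries and ratios of 104, 111, 77.3 and 24.7 in the 4 treated groups. Rasgrp3, of the same family, moved in the opposite direction in all 4 groups, as described with the genes that fell. The unnamed lncRNA ENSMUSG00000134692 had no count in any PBS library and 1.55 to 9.95 CPM in the treated ones.

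**Figure D3:**
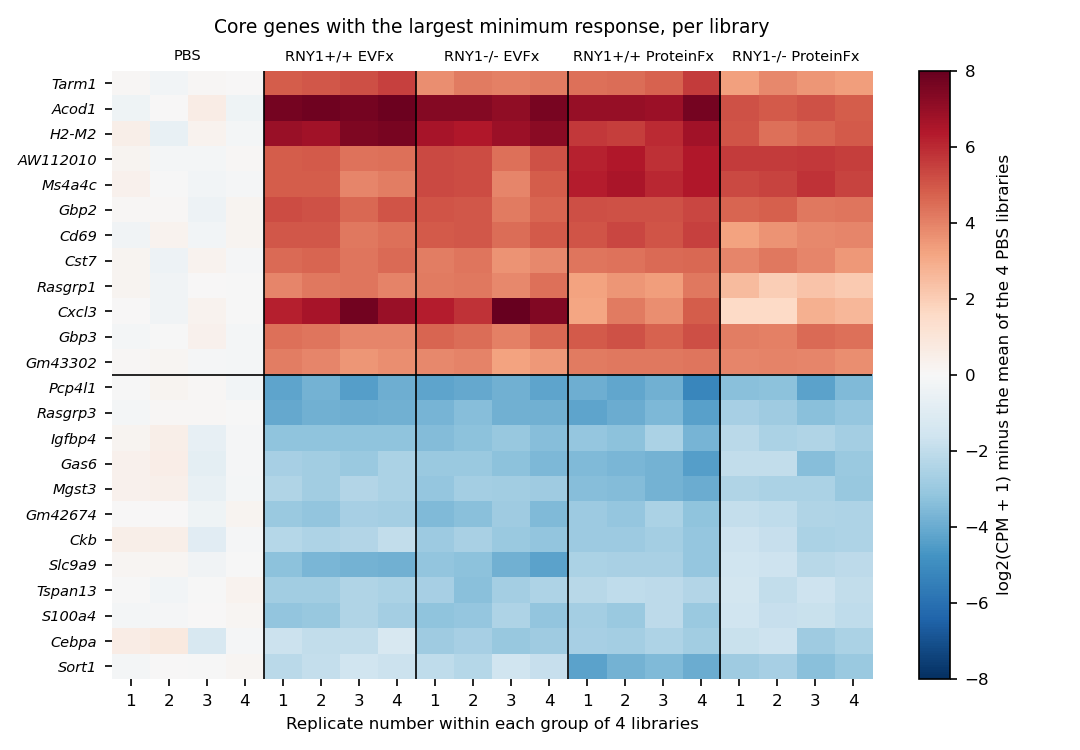
log2(CPM + 1) of 24 core genes in the 20 libraries, minus the mean of the 4 PBS libraries (colour scale), for the 12 genes per direction with the largest minimum response. Treated columns are red for every higher gene and blue for every lower gene in all 16 libraries, and Cxcl3 and Rasgrp1 are the palest of the higher genes in RNY1-/- ProteinFx.

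The gene lists below were fixed with earlier results of these data known. Their counts are descriptions beside those of all genes tested, of which 3.83% were core higher and 2.32% core lower. Of 44 antiviral interferon-stimulated genes tested, 36 were core higher (against 3.83% of all genes) and none was lower, and the median over the list of the mean log2 fold change was 2.37 beside -0.03 for all genes. Other scalings, removal of GC and length trends and omission of PBS replicate 3 gave 35 to 39 core-higher members of 44. Ifit1, which binds viral RNA lacking host cap methylation, was at 94.3, 71.7, 112 and 96.6 CPM in PBS. It reached 1837, 1685, 1211 and 1273 CPM in RNY1+/+ EVFx, 2634, 2248, 1653 and 2659 CPM in RNY1-/- EVFx, 3104, 3232, 2573 and 3745 CPM in RNY1+/+ ProteinFx and 1028, 1108, 2464 and 1941 CPM in RNY1-/- ProteinFx. No treated library came near PBS, and RNY1+/+ ProteinFx was highest, overlapping only with RNY1-/- EVFx. The log2 fold changes were 4.17, 4.85, 5.24 and 4.19 (SE 0.19 to 0.33), and the difference among the treated groups passed the test (edgeR F test, adjusted p = 0.00151).

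Rsad2, the antiviral enzyme viperin, was at 159 to 169 CPM in PBS. It measured 2794, 2535, 1351 and 1772 CPM in RNY1+/+ EVFx, 2822, 2854, 1333 and 2236 CPM in RNY1-/- EVFx, 3807, 3565, 3556 and 4002 CPM in RNY1+/+ ProteinFx, and 1396, 1571, 1667 and 1400 CPM in RNY1-/- ProteinFx. RNY1+/+ ProteinFx thus lay above the other 3 treated groups without overlap, and in each EVFx group replicate 3 was the lowest. Mx1, an antiviral GTPase, likewise had all its RNY1+/+ ProteinFx libraries above the other treated libraries, with 14.96 to 18.5 CPM in PBS, 182 to 362 CPM in RNY1+/+ EVFx, 142.5 to 335 CPM in RNY1-/- EVFx, 466 to 555 CPM in RNY1+/+ ProteinFx and 200 to 263 CPM in RNY1-/- ProteinFx. The ubiquitin-like protein gene Isg15 instead was highest in RNY1+/+ EVFx, with log2 fold changes of 4.51, 3.88, 3.99 and 3.14. Its deconjugating enzyme Usp18, a brake on interferon signalling, changed by 3.12, 2.83, 3.55 and 2.43. Ifi44, Ifit2 and Isg20 had minimum changes of 4.35, 4.34 and 3.73. At the other end, the 2′-5′ oligoadenylate synthetase Oas1g changed by only 1.00 to 1.68 and missed the fold limit with library totals (0.775), among other settings. The 8 tested members that were not core were Ifi35, Ifitm3, Siglec1, Oas2, Bst2, Oas1a, Ifi207 and Ifi27l2a.

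All 18 tested members of the interferon-inducible GTPases, which attack the vacuoles of intracellular microbes, were core higher, with a median mean change of 4.20. Gbp2 was at 21.7, 21.9, 15.1 and 23.7 CPM in PBS and at 379 to 879 CPM in treated libraries, with log2 fold changes of 5.21, 5.01, 5.36 and 4.58. Its 4 changes spanned 0.78, below the median span of 0.99 for core-higher genes (adjusted p = 0.00426 among treated groups, edgeR F test). Iigp1 was stronger with ProteinFx, at 5.34 to 8.46 CPM in PBS, 45.5 to 113 CPM in RNY1+/+ EVFx, 55.4 to 143 CPM in RNY1-/- EVFx, 301 to 421 CPM in RNY1+/+ ProteinFx and 269 to 327 CPM in RNY1-/- ProteinFx. The EVFx and ProteinFx libraries did not overlap. Gbp8 and Gbp11 were the members with their largest change in RNY1-/- ProteinFx. Gbp8 had log2 fold changes of 1.11, 1.84, 2.75 and 3.70, and Gbp11, with 3 counts over the PBS libraries, a ratio of 138 in RNY1-/- ProteinFx (95% counting interval 46.9 to 673) and of 19.1 in RNY1+/+ EVFx (6.31 to 94.8). For 11 of 17 Gbp and IRG genes most libraries had fractional counts, which arise where reads are divided among several matching genes, so values of single copies are uncertain. Among genes with whole counts in most libraries, 6 of 6 members of the list and 16 of 22 antiviral genes were core higher.

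Of 23 interferon regulatory factors, STATs and SOCS feedback inhibitors tested, 8 were core higher (among them Socs3, Socs1, Jak2, Irf7, Stat2, Nlrc5 and Irf1) and none was lower, with a median mean change of 0.52. Without PBS replicate 3 the counts were 7 higher and 1 lower.

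Irf7, which amplifies type I interferon induction, and Stat2 changed by similar amounts in the 4 groups. Irf7 changed by 2.35, 2.00, 2.48 and 2.15 and Stat2 by 2.22, 1.91, 2.35 and 2.00 on the log2 scale, and neither passed the test among treated groups (adjusted p = 0.0731 and 0.106, edgeR F test). The inhibitor of cytokine signalling Socs3 was at 0.618 to 1.14 CPM in PBS and at 11.6 to 74.4 CPM in treated libraries, with log2 fold changes of 5.44, 4.35, 6.10 and 4.51. Irf9, the DNA-binding subunit of the interferon-activated complex on the ISRE, was not core, with changes of 0.87, 0.57, 0.53 and 0.44.

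Among pattern recognition receptors and adaptors, 8 of 29 tested were core higher (Clec4e, Casp4, Ifih1, Rigi, Tlr1, Dhx58, Casp1 and Nod1) and none was lower, with a median mean change of 0.63. Clec4e, or Mincle, senses mycobacterial glycolipids and products of dead cells. It was at 21.3, 18.9, 21.5 and 17.8 CPM in PBS, 2732, 3090, 3293 and 3032 CPM in RNY1+/+ EVFx, 2492, 2484, 2810 and 3560 CPM in RNY1-/- EVFx, 652, 785, 595 and 1234 CPM in RNY1+/+ ProteinFx, and 156, 163, 210 and 182 CPM in RNY1-/- ProteinFx. EVFx libraries were all above ProteinFx libraries, and the ProteinFx groups did not overlap with each other (log2 fold changes 7.43, 7.39, 5.53 and 3.21, adjusted p among treated groups = 1.53e-11, edgeR F test). The RNA sensor Ifih1 had its largest change in RNY1+/+ ProteinFx (2.24, 2.67, 3.15 and 2.54). Casp4, the mouse sensor of cytosolic lipopolysaccharide, had changes of 2.42 to 2.76 that did not pass the test among treated groups (adjusted p = 0.0811, edgeR F test).

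NF-kB factors and feedback inhibitors had 9 of 31 members core higher (Nfkbiz, Zc3h12a, Ier3, Bcl2a1a, Birc3, Tnip3, Bcl3, Bcl2a1d and Nfkbia), none lower and a median mean change of 1.41. Several of those named, such as Nfkbia and Tnip3, restrain NF-kB. The count was 11 without PBS replicate 3 and 5 with glmTreat, a test against the fold limit itself. Among members with whole counts in most libraries it was 7 of 27. Nfkbia encodes the inhibitor IkB-alpha, itself an NF-kB target. It was at 138, 134, 133 and 147 CPM in PBS, 1142, 1214, 1094 and 1113 CPM in RNY1+/+ EVFx, 850, 908, 812 and 1032 CPM in RNY1-/- EVFx, 496, 502, 451 and 660 CPM in RNY1+/+ ProteinFx, and 315, 278, 257 and 291 CPM in RNY1-/- ProteinFx. The 5 groups did not overlap, and the order ran from RNY1+/+ EVFx down to RNY1-/- ProteinFx and PBS. The log2 fold changes were 3.22, 2.94, 2.09 and 1.09 (adjusted p among treated groups = 1.36e-10, edgeR F test), so the smallest lay just above the fold limit. Nfkbiz, a nuclear cofactor of NF-kB, changed by 4.37, 4.50, 3.70 and 2.25.

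Of 17 chemokines tested, 7 were core higher, none was lower, and the median mean change was 2.47. Cxcl2 and Cxcl3, attractants of neutrophils, were strongest with EVFx. Cxcl2 was at 4.51, 5.25, 4.35 and 5.16 CPM in PBS, 388, 418, 658 and 602 CPM in RNY1+/+ EVFx, 238, 227, 444 and 394 CPM in RNY1-/- EVFx, 50.7, 53.0, 60.6 and 111 CPM in RNY1+/+ ProteinFx, and 21.2, 18.9, 34.3 and 29.6 CPM in RNY1-/- ProteinFx. Cxcl3 had 4 counts in all of PBS, and its ratios were 736 in RNY1+/+ EVFx (95% counting interval 287 to 2703), 785 in RNY1-/- EVFx (306 to 2881), 108 in RNY1+/+ ProteinFx (41.8 to 398) and 21.9 in RNY1-/- ProteinFx (8.20 to 82.2).

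Ccl12, a ligand of Ccr2 on monocytes, showed the opposite order. It was at 23.4, 16.4, 21.3 and 10.7 CPM in PBS, 133, 104, 46.9 and 56.4 CPM in RNY1+/+ EVFx, 140, 114, 39.4 and 79.1 CPM in RNY1-/- EVFx, 1839, 1957, 1700 and 1235 CPM in RNY1+/+ ProteinFx, and 1009, 1177, 1348 and 1092 CPM in RNY1-/- ProteinFx. ProteinFx and EVFx libraries did not overlap (log2 fold changes 2.43, 2.62, 6.72 and 6.06). Ccl2, another Ccr2 ligand, was called in the ProteinFx groups (5.09 and 3.93) but not in the EVFx groups (0.40 and 0.59), and was therefore not core. Cxcl10, an interferon-induced attractant of T cells, changed by 5.14, 5.61, 6.69 and 4.31, and Ccl5 by 4.88, 3.95, 2.88 and 1.78. Cxcl16 was the most even chemokine of the core, with changes of 1.90 to 2.31.

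Of 18 cytokines and growth factors tested, 5 were core higher (Edn1, Il1b, Il1a, Tnfsf10 and Tnfsf15) and Pdgfb was core lower, with a median mean change of 1.50. With length and GC trends removed, 8 were core higher. Il1b, the inflammasome-dependent cytokine, was at 0, 0.463, 0.915 and 0.534 CPM in PBS. It reached 41.4, 48.8, 51.3 and 57.1 CPM in RNY1+/+ EVFx, 14.1, 19.2, 21.2 and 28.3 CPM in RNY1-/- EVFx, 18.4, 28.9, 24.1 and 87.1 CPM in RNY1+/+ ProteinFx, and 7.75, 7.41, 3.59 and 5.71 CPM in RNY1-/- ProteinFx. Replicate 4 of RNY1+/+ ProteinFx stood above the other 3 of its group, for Il1b and also for Il1a (285 CPM against 76.9 to 106). The vasoconstrictor gene Edn1 was highest in RNY1+/+ ProteinFx, with a ratio of 160.0 to 4 PBS counts (95% counting interval 62.1 to 589), against 15.8 to 26.3 in the other treated groups. Tnf was not core, since its change of 0.78 in RNY1-/- ProteinFx missed the fold limit, beside 4.99, 3.76 and 2.18 in the other groups. Pdgfb, a growth factor for mesenchymal cells, fell by 1.28, 1.97, 2.05 and 2.22 on the log2 scale.

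Of 27 inducible effectors tested, 19 were core higher and none was lower, with a median mean change of 3.83. Saa3, an acute-phase protein, was the most abundant of them after Cybb. It was at 214, 170, 64.5 and 127 CPM in PBS, 5438, 5057, 3622 and 4737 CPM in RNY1+/+ EVFx, 2328, 2293, 1427 and 2249 CPM in RNY1-/- EVFx, 3024, 3640, 2437 and 4968 CPM in RNY1+/+ ProteinFx, and 995, 1005, 708 and 537 CPM in RNY1-/- ProteinFx. Even the lowest treated library was above the highest PBS library, and RNY1-/- ProteinFx lay below the other treated groups (log2 fold changes 5.20, 4.08, 4.77 and 2.52). Cybb, the catalytic subunit of the phagocyte oxidase, rose from 1329 to 1807 CPM to 2812 to 7413 CPM and had its smallest change, 1.05, in RNY1-/- ProteinFx. It missed the core call with library totals (smallest change 0.998), with length and GC trends removed (0.671) and without PBS replicate 2 (0.982) or RNY1-/- ProteinFx replicates 3 and 4 (0.961). Nos2, the inducible nitric oxide synthase, had 5 counts in PBS and ratios of 60.4, 59.0, 56.0 and 18.2. Ptgs2, which makes prostaglandins, changed by 6.41, 6.62, 4.39 and 3.10, and Sod2, the mitochondrial superoxide dismutase, by 4.57, 4.54, 4.15 and 2.52. Arg1 and Slc7a11 of the same list were not core. Arg1 had log2 fold changes of -1.37, -1.60, 7.34 and 7.65, of which the EVFx changes were not called. Slc7a11 had log2 fold changes of 5.46, 5.52, 1.20 and 0.15.

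In the MHC class I pathway, 11 of 20 tested genes were core higher, none was lower, and the median mean change was 1.42. The count moved with the processing. It was 17 of 20 with GC and length trends removed, but 9 with library totals and 9 without PBS replicate 3. It was 5 with glmTreat, a test against the fold limit itself. H2-K1, the classical class I heavy chain, was among the genes with the most even response. It was at 2835, 2589, 2530 and 2762 CPM in PBS, 7556, 7547, 7081 and 6907 CPM in RNY1+/+ EVFx, 7713, 7677, 6137 and 6992 CPM in RNY1-/- EVFx, 7164, 6601, 5829 and 6906 CPM in RNY1+/+ ProteinFx, and 8866, 7013, 5624 and 6482 CPM in RNY1-/- ProteinFx. The treated groups overlapped and did not pass the test among them (log2 fold changes 1.61, 1.64, 1.46 and 1.42, adjusted p = 0.294, edgeR F test). Tap1, the peptide transporter, changed by 2.12, 1.79, 2.09 and 1.80, and the nonclassical H2-Q7 by 5.45, 5.05, 4.36 and 3.88. Among class I pathway genes with whole counts in most libraries, 6 of 10 were core higher. None of 7 MHC class II genes was core in either direction. Among costimulatory and checkpoint molecules 5 of 11 were core higher (median mean change 1.94), including Cd274, the ligand PD-L1, with 22.9 to 38.4 CPM in PBS and 185 to 392 CPM in treated libraries.

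Several families stood out after the values were seen, so their counts carry no test. They stand beside 3.83% core higher and 2.32% core lower over all genes tested. Of 12 PYHIN genes tested 10 were core higher, with Aim2, the DNA sensor of the inflammasome, at -0.02 to 0.21 on the log2 scale. Of 7 Schlafen genes 6 were core higher, led by Slfn4 (4.11, 4.71, 7.03 and 5.32). All 4 Phf11 genes, all 4 Trim30 genes and 8 of 9 Gvin genes were core higher, as were 5 of 8 Ms4a genes and 5 of 12 PARP genes. Most libraries had fractional counts for 10 of 12 PYHIN genes, 9 of 9 Gvin genes and 4 of 4 Phf11 genes, so values of single members of these families are uncertain. Of 8 S100 genes tested, 4 were core lower (S100a1, S100a4, S100a6 and S100a13).

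Core genes lay close together on the chromosomes. In the GENCODE annotation of GRCm38, 128 of 384 placed core-higher genes (33.3%) had another core-higher gene starting within 100000 bases, against 582 of 9919 other tested genes (5.87%). The interferon-induced gene families lie in tandem arrays, so these neighbours are often copies of each other. On chromosome 5, from 105014150 to 105346472, all 7 tested genes were core higher (Gbp8, Gbp9, Gbp4, Gm43302, Gbp10, Gbp6 and Gbp11). On chromosome 3, from 142493978 to 142638008, the same held for Gbp5, Gbp7, Gbp3 and Gbp2, and on chromosome 19, from 34550694 to 34650009, for 5 of 5 genes around the Ifit family. The Ms4a cluster on chromosome 19, from 11404770 to 11604849, had 7 of 8. Core-lower genes also had neighbours, with 51 of 242 (21.1%) near another core-lower gene against 5.17% of the others. Their main cluster, on chromosome 3 from 90511034 to 90624181, held S100a1, S100a13, Gm42674, S100a4 and S100a6.

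Among core-lower genes chosen in the same way, Pcp4l1, of the PEP-19 family of calmodulin-binding peptides, kept the largest minimum response. It was at 47.3, 56.2, 51.9 and 41.5 CPM in PBS and at 0.347 to 4.20 CPM in treated libraries, with log2 fold changes of -4.40, -4.45, -4.72 and -3.78. Rasgrp3, an activator of Ras and Rap, was at 62.9, 73.2, 73.9 and 69.8 CPM in PBS, 3.102, 4.004, 3.804 and 3.987 CPM in RNY1+/+ EVFx, 4.46, 5.81, 3.94 and 4.04 CPM in RNY1-/- EVFx, 2.87, 3.55, 4.78 and 2.43 CPM in RNY1+/+ ProteinFx, and 10.01, 8.81, 5.98 and 7.26 CPM in RNY1-/- ProteinFx. It fell in every treated library, least in RNY1-/- ProteinFx (-4.06, -3.69, -4.23 and -3.05), while its relative Rasgrp1 rose. S100a4, a calcium-binding protein of motile cells, was at 334 to 408 CPM in PBS and at 37.7 to 118 CPM in treated libraries.

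Among homeostatic macrophage receptors and regulators, 10 of 33 tested were core lower (Gas6, Gpr34, Cebpa, Fcgrt, Trem2, Cd300a, Folr2, Stab1, Cd36 and Pparg), against 2.32% of all genes. Adgre1 and Klf4, 2 members, were core higher, and the median mean change was -0.81. The list as a whole fell mainly with EVFx, with medians of -1.71 in RNY1+/+ EVFx and -1.44 in RNY1-/- EVFx. The medians were -0.31 in RNY1+/+ ProteinFx and 0.09 in RNY1-/- ProteinFx. Lower members numbered 2 with glmTreat, which tests against the fold limit itself, 12 with no fold limit, and 8 to 11 with other scalings, length and GC trends removed, a replicate block or without PBS replicate 3. Gas6 bridges dying cells to the uptake receptors Mertk and Axl. It was at 677, 748, 299 and 496 CPM in PBS, 80.5, 75.8, 67.1 and 88.8 CPM in RNY1+/+ EVFx, 66.3, 65.5, 52.0 and 41.9 CPM in RNY1-/- EVFx, 44.9, 39.8, 37.95 and 23.8 CPM in RNY1+/+ ProteinFx, and 136, 135, 48.2 and 65.4 CPM in RNY1-/- ProteinFx. PBS replicate 3 was the lowest PBS library and was still above every treated one, and the log2 fold changes were -2.66, -3.07, -3.78 and -2.50.

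Trem2, a receptor for lipids and apoptotic cells, fell from 641, 597, 327 and 457 CPM in PBS to 68.5 to 198 CPM, with log2 fold changes of -2.27, -2.44, -2.27 and -1.60. Tyrobp, the adaptor through which Trem2 signals, had changes of -1.13 to -1.48. Gpr34, a receptor for lysophosphatidylserine, was at 26.2 to 34.3 CPM in PBS. It was at 0 to 1.01 CPM in both EVFx groups and RNY1+/+ ProteinFx but at 7.93, 5.17, 3.59 and 4.15 CPM in RNY1-/- ProteinFx, which did not overlap with the others. Cebpa, a transcription factor of myeloid differentiation, was at 116, 130, 31.3 and 71.3 CPM in PBS, and its highest treated library, at 31.2 CPM, lay just below PBS replicate 3. Pparg, a nuclear receptor of lipid handling, changed by -2.20, -1.80, -1.81 and -1.01, and the scavenger receptor Cd36 by -1.89, -1.40, -1.46 and -1.09. Adgre1, which encodes the macrophage marker F4/80, rose from 763 to 1013 CPM to 2114 to 3329 CPM, the only core gene among the 10 macrophage markers.

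Cell cycle and DNA replication genes had 7 of 27 core lower (Stmn1, Ccna2, Rrm2, Kif23, Cenpf, Mcm2 and Tyms), against 2.32% of all genes. None was core higher, and the median mean change was -0.83. The count was 11 with library totals, 15 with a more lenient filter on low counts (filterByExpr), and 2 with glmTreat. Stmn1, which destabilises microtubules, went from 16.96 to 18.43 CPM in PBS to 1.44 to 4.31 CPM. Cytosolic ribosomal proteins had 7 of 76 core lower and none higher (median mean change -0.85), but this count moved with the processing. It was 14 with library totals, 16 without PBS replicate 3, 3 with length and GC trends removed, 3 with a replicate block, 0 with glmTreat, 49 with no fold limit, 4 without RNY1-/- ProteinFx replicates 3 and 4, and 0 of 4 among genes with mostly whole counts. Rplp1 was at 3108, 2893, 1368 and 2344 CPM in PBS and at 540 to 1220 CPM in treated libraries, so that PBS replicate 3 lay close to the highest treated library. Its smallest change was -0.94 with a replicate block, inside the fold limit.

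Beside 3.83% of all genes core higher and 2.32% core lower, nothing is read from list counts of 1 or 2. Among lysosome and V-ATPase genes 2 of 28 were core lower (Ctsd and Man2b1), with 3 by library totals, 4 without PBS replicate 3, 0 with glmTreat and 5 with no fold limit. Ctsd, the aspartic protease cathepsin D, was at 5825, 5878, 2090 and 3659 CPM in PBS and at 801 to 2062 CPM in treated libraries. For cholesterol synthesis 1 of 29 was higher (Hsd17b7) and 1 lower (Apoe), and neither was core with length and GC trends removed or without RNY1-/- ProteinFx replicates 3 and 4. Apoe also missed the fold limit with a replicate block, at a smallest change of -0.95. Glycolysis had 2 of 20 core higher (Pfkfb3 and Slc2a1), and NRF2 and antioxidant genes 1 of 20 lower (Mt1), with 2 by library totals, 0 with glmTreat and 3 with no fold limit. None of 38 nuclear oxidative phosphorylation subunits was core. Of 23 AP-1, ATF, EGR and MYC-family factors 4 were core higher (Atf4, Batf, Batf2 and Mxd1). The marker lists held 1 core gene for macrophages (Adgre1, higher), 1 for neutrophils (Ngp, lower) and none for fibroblasts or endothelial cells. In all, 272 of the core-higher and 217 of the core-lower genes were in none of the lists.

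**Figure D4:**
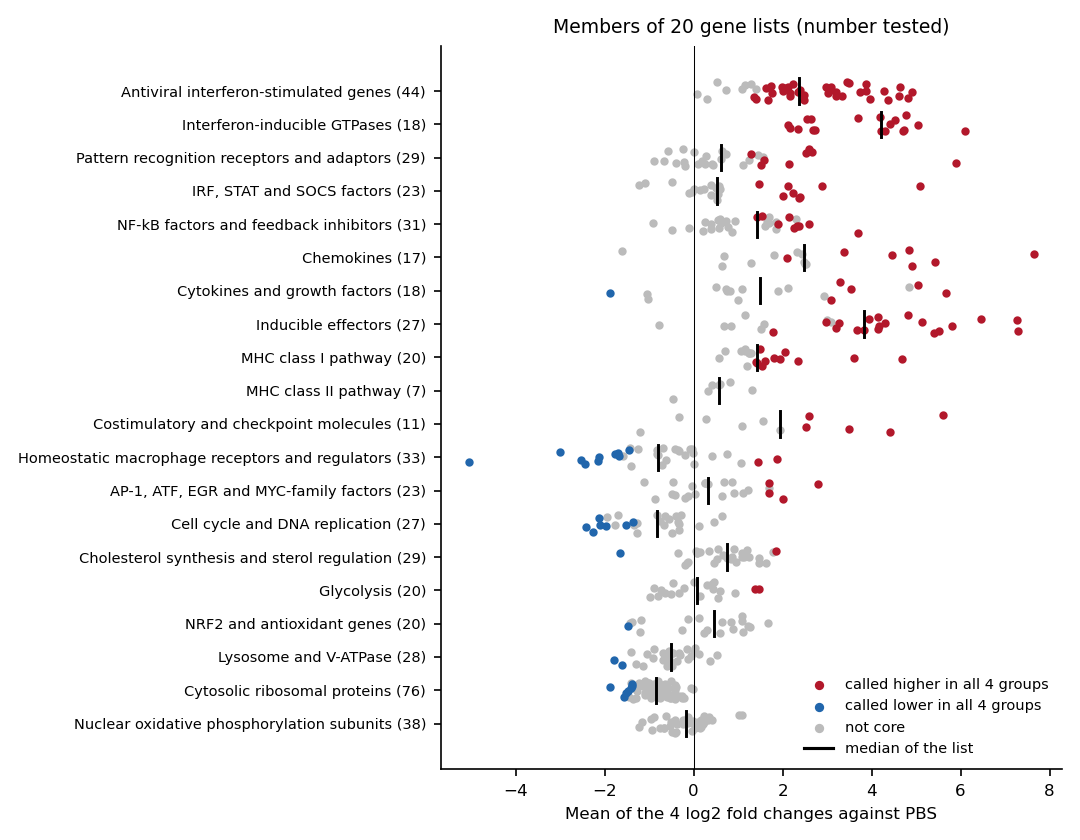
Mean of the 4 log2 fold changes against PBS (x axis) for the tested members of 20 gene lists (y axis, number tested in parentheses), one point per gene. The interferon-inducible GTPases lie farthest to the right, with a median of 4.20, and the cytosolic ribosomal proteins have a median of -0.85.

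Atf4 itself and genes linked to it, of amino acid synthesis, transport and tRNA charging and of stress, were also chosen after their values were seen. Of 29 tested, 12 were core higher (Mthfd2, Trib3, Asns, Slc1a4, Slc7a1, Aldh18a1, Slc7a5, Nupr1, Atf4, Psat1, Cars1 and Iars1), against 3.83% of all genes. The median mean change of the 29 was 1.16, from -0.69 for Atf5 to 3.38 for Mthfd2. Atf5, Sars1, Shmt2 and Slc3a2 were among those not core. Atf4, the transcription factor of the integrated stress response, was at 71.3, 72.3, 66.8 and 65.0 CPM in PBS and at 200.5 to 303 CPM in treated libraries (log2 fold changes 2.20, 1.99, 2.08 and 1.76). Mthfd2, of mitochondrial folate metabolism, was at 11.9 to 15.1 CPM in PBS and at 84.6 to 171 CPM in treated libraries. Asns, the asparagine synthetase, was higher with ProteinFx, with changes of 2.79, 2.83, 3.49 and 3.35.

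Being core did not mean an equal response. The 4 treated groups differed for 370 of the 407 core-higher genes and 190 of the 247 core-lower genes (edgeR F test at an adjusted p under 0.05), beside 72.0% of all genes tested. With a largest difference between treated groups above 1 on the log2 scale required as well, the counts were 199 and 93, beside 20.8% of all genes tested. The 4 log2 fold changes of a gene spanned a median of 0.99 for core-higher and 0.86 for core-lower genes. RNY1-/- ProteinFx gave the smallest of the 4 changes for 46.7% of core-higher and 50.6% of core-lower genes, and RNY1+/+ ProteinFx the largest for 62.4% and 38.5%. For core-lower genes the largest change was most often in RNY1-/- EVFx (42.5%). No such share was computed over all genes tested, so these shares have no background beside them. RNY1-/- ProteinFx also had the fewest calls of the 4 groups (14.4% of all genes tested). In a model of fraction and fluid genotype over the 16 treated libraries, 170 core-higher genes were higher and 112 lower with ProteinFx than with EVFx (53.8% of all genes tested differed in either direction), and 7 were higher and 154 lower with RNY1-/- than with RNY1+/+ fluid (20.5% of all genes tested). Of the core-lower genes, 76 were higher and 29 lower with ProteinFx (beside the same 53.8%), and 42 were higher and 3 lower with RNY1-/- fluid (beside 20.5%). The shares over all genes were not split by direction, so the splits of core genes have no background beside them. An interaction of fraction and genotype passed the test for 222 core-higher and 131 core-lower genes, beside 32.6% of all genes tested. These were 353 genes in all, and 119 without RNY1-/- ProteinFx replicates 1 and 2.

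**Figure D5:**
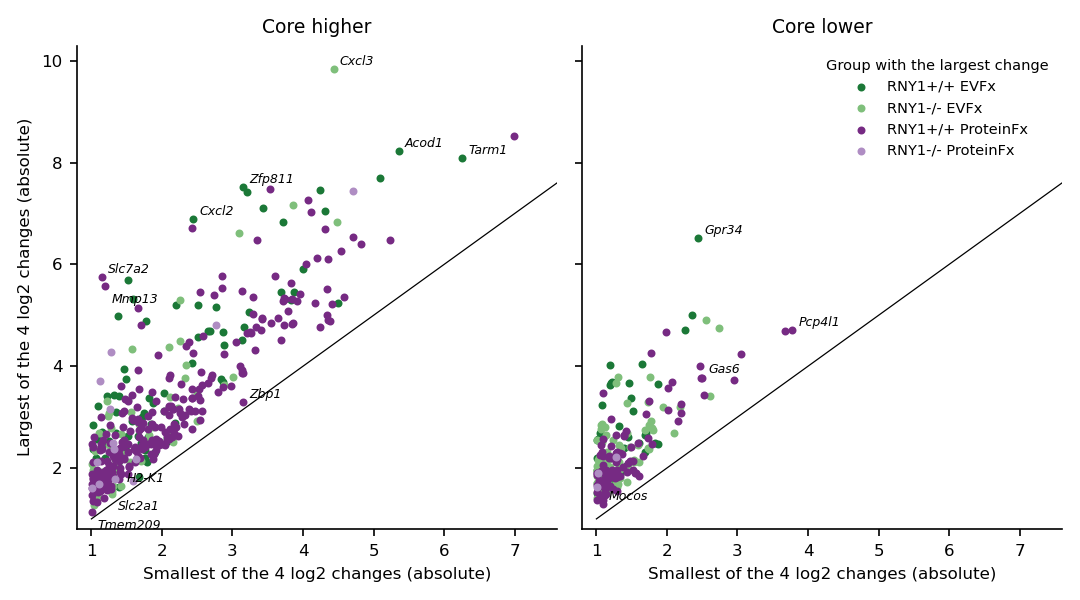
Smallest (x axis) and largest (y axis) of the 4 absolute log2 fold changes for each core-higher gene (left) and core-lower gene (right), coloured by the group with the largest change, with the line of equal change. RNY1+/+ ProteinFx gave the largest change for 62.4% of the core-higher genes, and Cxcl3 lies far above the line with a span of 5.40.

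The most even members with a mean of at least 10 CPM were Tmem209, Zbp1, Mocos, Slc2a1 and H2-K1, whose 4 changes spanned 0.13 to 0.22. Zbp1, a sensor of Z-form nucleic acids, was at 33.4, 31.5, 17.1 and 27.2 CPM in PBS and at 187 to 270 CPM in treated libraries, and its changes of 3.16, 3.18, 3.29 and 3.15 did not pass the test among treated groups (adjusted p = 0.552, edgeR F test). The least even were Cxcl3, Slc7a2, Cxcl2, Mmp13 and Zfp811, with spans of 4.36 to 5.40. Mmp13, a collagenase, was at 9.02 to 15.8 CPM in PBS, 18.7 to 32.8 CPM over both EVFx groups, 396 to 742 CPM in RNY1+/+ ProteinFx and 122 to 225 CPM in RNY1-/- ProteinFx. Its smallest change fell below the fold limit with library totals (0.963), with counts thinned to the smallest library (0.994) and with length and GC trends removed (0.762). The cationic amino acid transporter Slc7a2 was also stronger with ProteinFx (1.60, 1.14, 5.75 and 4.59), and Zfp811, a zinc finger gene, with EVFx (7.52, 7.50, 5.71 and 3.15). Slc7a2 missed the core call with library totals (smallest change 0.906), with length and GC trends removed (0.823) and without RNY1-/- EVFx replicate 4 (0.740).

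Another 52 genes were called in opposite directions in different treated groups and were thus outside the core. Among those with the widest span at 10 CPM or more were Gatm, Ccr1, Htr2b, Clec4n and Eps8. Gatm, which makes the creatine precursor guanidinoacetate, was at 114, 98.2, 163 and 112 CPM in PBS, 7.25 to 14.2 CPM in RNY1+/+ EVFx, 13.6 to 25.1 CPM in RNY1-/- EVFx, 730.4 to 971 CPM in RNY1+/+ ProteinFx and 661 to 1024 CPM in RNY1-/- ProteinFx. EVFx libraries were all below PBS and ProteinFx libraries all above it. The chemokine receptor Ccr1 moved likewise, with log2 fold changes of -2.55, -2.22, 1.96 and 2.06. Clec4n, or Dectin-2, went the other way, with 1.52, 0.92, -2.79 and -1.96.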

How the data were processed

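Poly(A) RNA of 20 BMDM libraries (5 groups of 4) was sequenced from 3′ ends with molecular identifiers. The deposited expected counts were made by the authors with fastp 0.24.0, STAR 2.7.11 on GRCm39, removal of duplicate identifiers and featureCounts of Subread 2.1.1, strand-specific over exons and 3′ untranslated regions, dividing multimapping reads into fractions (the annotation release is not given in the sources used here). The deposited CPM values are the authors' counts divided by each library's total. In 23.6 to 26.3% of nonzero entries per library the count was not whole, and counts were rounded before testing. Of 78317 genes listed, 34342 had a count, and 92 spike-in entries were left out. Every sample column was used. Totals of 2510005 to 8277366 counts set the precision, and intervals given for ratios cover counting error only.

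edgeR 4.0.16 in R 4.3.3 fitted each treated group against PBS on its own 8 libraries (TMM scaling, quasi-likelihood test), and the 16 treated libraries for differences among them. Genes averaging 3 CPM or more were tested. The genes named were the 12 core genes per direction with the largest smallest response (10 CPM or more, no overlap with PBS), the 5 most and 5 least even, the 6 with the widest opposite calls, the 6 most abundant per direction, those next to the fold limit, members of the gene and marker lists and 10 genes listed by name. Some genes that this rule names are not reported here. Families were added after values were seen. Members, lists and tests were chosen with earlier results of these data known. Replicate numbers did not pair the libraries across all groups: deviations of same-numbered libraries correlated at -0.39 to 0.64, over 0.1 in 21 of 40 pairs. All 4 pairs were over 0.1 between PBS and RNY1-/- EVFx (0.13 to 0.38) and between RNY1-/- EVFx and RNY1-/- ProteinFx (0.22 to 0.40). Between PBS and RNY1-/- ProteinFx, the groups with the widest spread, the values were 0.51, 0.62, 0.64 and 0.02. Values with a replicate block are therefore given where they change the call of a gene named by rank, next to the fold limit or listed by name. Gene positions, length and GC came from GENCODE for GRCm38 and promoters from RefSeq (GRCm38.p6), a different build from that of the counts, matched by identifier or symbol. Alternatives used DESeq2 1.42.0, and Python 3.11.15 drew the figures. The tests across genes were tried on simulated data.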

Additional observations from a re-analysis of the deposited data

Results flagged for a closer look

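In groups of 4 libraries, a library far from the other 3 was looked for in 185 groups (35 genes and the shares of counts by 5 groups), where chance flags about 1 in 20, and 5 were found. Acod1 was at 867.2 CPM in RNY1+/+ ProteinFx replicate 4, against 494.6 to 555.7 CPM in the others of that group. Adgre1 was at 3329 CPM in the same library, against 2833 to 2862 CPM. Saa3 was low in RNY1-/- EVFx replicate 3, at 1427 CPM against 2249 to 2328 CPM, and S100a4 was high there, at 65.02 CPM against 37.69 to 41.03 CPM. Cd36 was high in RNY1+/+ ProteinFx replicate 3, at 1053 CPM against 642.4 to 707.4 CPM. None of these libraries overlapped with PBS for the gene in question.

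Levels differed among the 4 treated groups for 370 core-higher and 190 core-lower genes (edgeR F test), beside 72.0% of all genes tested. The 4 log2 fold changes spanned 5.40 for Cxcl3 (adjusted p = 1.69e-07, edgeR), 4.61 for Slc7a2 (3.58e-10), 4.46 for Cxcl2 (8.37e-10), 4.38 for Mmp13 (2.21e-12) and 4.36 for Zfp811 (2.1e-11). Among genes with opposite calls, the spans were 6.31 for Gatm (adjusted p = 1.96e-14, edgeR), 4.61 for Ccr1 (1.39e-14), 4.53 for Htr2b (1.34e-13), 4.31 for Clec4n (1.1e-12) and 4.23 for Eps8 (3.46e-14).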

How the results depend on the processing

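The 407 core-higher genes were the steadier side. DESeq2 gave 414 higher and 236 lower (403 and 233 shared with edgeR). Scaling to Rab14, Arpc2 and Cltc gave 404 and 262, and a single fit of all libraries 406 and 257. The paper picked Rab14, Arpc2 and Cltc from these data for little change between PBS and RNY1+/+ ProteinFx and between the ProteinFx groups. Scaling to them is therefore not an independent check. The fit with a replicate block gave 414 and 244 and 1732, 2411, 2202 and 1666 calls per group. Among genes named by rank, next to the fold limit or listed by name, Rplp1, Apoe and Cdc42ep3 then lost the core call. Whether the numbers pair libraries between any groups was not settled. Of 40 comparisons, 15 were most correlated with their own number, and some would be without pairing. Leaving out 1 library gave 395 (without RNY1+/+ EVFx replicate 2) to 437 (without PBS replicate 3) higher and 183 (without PBS replicate 2) to 366 (without PBS replicate 3) lower, and 349 higher and 140 lower genes stayed core in all 20 omissions. Calls per group then ran 1708 to 1876, 2162 to 2863, 1997 to 2765 and 1209 to 1992, differences among treated groups 350 to 373 and 172 to 199, and effects of fraction 362 to 387, genotype 179 to 224 and interaction 267 to 386.

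Without a filter on low counts 402 genes were core lower, and calls were 2946, 3732 and 3469 in RNY1+/+ EVFx, RNY1-/- EVFx and RNY1+/+ ProteinFx. With no fold limit 931 were core higher and 1026 lower, and calls were 4748, 6218, 5855 and 3839. With glmTreat, which tests against the fold limit, the counts were 237 and 42, and 978, 1110, 966 and 434. Requiring a difference above 1 among treated groups left 199 and 93. With length and GC trends removed, RNY1-/- ProteinFx had 1015 calls. In alternatives chosen after seeing the data, omitting RNY1-/- ProteinFx replicates 3 and 4 left 159 core-lower genes and 915 calls in that group, and omitting replicates 1 and 2 left 119 genes with an interaction. The mean changes of the reference genes reversed, for Rab14 to -0.037 with library totals and -0.21 with length and GC trends removed, and for Cltc to -0.12 and -0.25. The cause was not tested. Single genes were followed through the settings only when named by rank, next to the fold limit or listed by name. Other members of the gene lists and families were not followed singly, and some lost the call, such as Hsd17b7 and Mt1. Among the genes followed, Cybb, Mmp13, Slc7a2, Oas1g, Tmem209 and Slc2a1 of the higher genes lost the core call in some setting. So did Apoe, Cd36, Cdc42ep3, Cebpa, Ctsd, Lgals1, Mocos, Rplp1 and Tyrobp of the lower genes.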
